A study of Mus musculus with 8 samples.

Results

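The genes described here are 9 genes of red blood cells, measured in mouse embryonic pancreas: the embryonic globins Hba-x, Hbb-bh1 and Hbb-y, the definitive globins Hba-a1 and Hbb-b1, and 4 further erythroid genes, Alas2, Slc4a1, Klf1 and Epor. They were taken by name: every non-control probe whose gene name in the scanner files was 1 of these 9 was used, which gave 14 of 41174 probes, and 9 of the 18506 genes tested. All 14 probes were well above background on all 8 arrays, and none was saturated on any array. The probes for Hba-a1 and Hbb-b1 may also read near-identical copies, so their values are those of the definitive alpha and beta globin transcripts that the probes can bind.

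RNA came from dorsal pancreatic epithelium dissected by hand from e12.5 embryos, at mid-gestation, and was read on single-colour Agilent arrays, 4 for each genotype. The Sox9 mutant embryos were Sox9fl/fl; Pdx1-Cre, and the wild-type embryos were littermates that carried Sox9fl/fl with no Cre transgene. Both genotypes came from a cross of a Sox9-flox line on a mixed FVB/N x C57Bl/6J background with Pdx1-Cre on C57Bl/6J. Pdx1-Cre acts in the pancreatic epithelium, so the deletion is directed at that epithelium and not at blood cells, and the presence of Cre and the loss of Sox9 cannot be told apart. Each RNA sample was pooled from 3 embryos, and no sorting step that would remove blood cells was described. Sox9 itself was at 3.01, 2.13, 1.82 and 2.19 on wild-type arrays 1 to 4 (replicates in the labels' numbering) and at -0.61, -1.79, -0.01 and 0.77 on mutant arrays 1 to 4, so the genotypes did not overlap (difference -2.70, limma adjusted p = 0.0253).

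All levels are log2 signals relative to the 75th percentile of the same array, and a difference is the mutant mean minus the wild-type mean on that scale. A gene was called where limma's two-sided p, adjusted over all genes tested, was under 0.05. Levels of different probes are not set against each other, because probes differ in how brightly they read.

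Erythroid cells are made in waves. The first, from the yolk sac, consists of large primitive red cells that circulate in the embryo and carry embryonic globins, and they shift towards definitive globins as they mature. The second wave, made in the fetal liver, carries definitive globins. Haemoglobin joins alpha-type chains (Hba-x, then Hba-a1 and its copy Hba-a2) with beta-type chains (Hbb-bh1 and Hbb-y, then the adult beta globins), and the other 4 genes serve the making of haem, the red cell membrane, erythroid transcription and the response to erythropoietin.

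The globin probes are shown because the reading of copies decides what a globin value means. The Hba-a1 probes lay at chr11:32183775-32183956 and chr11:32196744-32196803 (mm8, the build of the array design, plus strand), that is, at different places on the chromosome, and the first was listed over 182 bases, longer than its own 60 bases. They overlapped in 30 bases, of which 27 matched. The capitals mark the differing bases, which counted from the 5′ end of A_52_P278538 are T37C, C49T and C52T, with the base of A_52_P278538 first.
Hba-a1 A_52_P278538: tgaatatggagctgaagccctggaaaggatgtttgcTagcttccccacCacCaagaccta
Hba-a1 A_52_P208681: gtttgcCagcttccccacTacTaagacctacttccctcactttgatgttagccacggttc

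Of the 4 Hbb-b1 probes, A_51_P374476 (chr7:103687307-103687366) and A_52_P260346 (chr7:103687338-103687397, both mm8, minus strand) share the 29 bases in capitals, so they are not independent readings. The accession that the array gives for all 4, NM_008220, belongs to Hbb-bt in the RefSeq table used here, and no probe carried the names Hba-a2 or Hbb-b2.
Hbb-b1 A_51_P374476: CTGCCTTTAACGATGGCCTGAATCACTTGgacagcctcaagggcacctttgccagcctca
Hbb-b1 A_52_P260346: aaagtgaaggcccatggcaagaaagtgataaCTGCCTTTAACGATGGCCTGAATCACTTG

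The embryonic beta globin Hbb-bh1 also had overlapping probes, at chr7:103715614-103715673 and chr7:103715634-103715693 (mm8, minus strand), with 40 shared bases in capitals.
Hbb-bh1 A_51_P179672: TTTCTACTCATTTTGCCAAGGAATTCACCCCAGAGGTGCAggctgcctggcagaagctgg
Hbb-bh1 A_52_P305876: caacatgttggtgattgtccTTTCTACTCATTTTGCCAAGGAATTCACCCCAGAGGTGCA

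Hbb-y (chr7:103726719-103726778, mm8, minus strand) and Hba-x (chr11:32177668-32177727, mm8, plus strand) had 1 probe each, and no capitals are set in them. The longest run of bases shared by globin probes of different genes was 9. Probes were compared with probes only, and these can lie at different places of their transcripts. Whether a probe also reads the transcript of another globin gene was therefore not tested.
Hbb-y A_51_P350058: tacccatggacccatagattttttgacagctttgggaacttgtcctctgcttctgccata
Hba-x A_51_P204053: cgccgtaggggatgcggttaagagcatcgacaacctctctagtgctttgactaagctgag

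None of the 9 genes was called between the genotypes, and none of the 14 probes in a separate fit over probes. Across all genes tested, 5.37% were called, 1.56% as higher in the mutant arrays, and of all probes tested 3.75% were called. In 7 of the 9 genes the mean was higher in the mutant arrays, against 52.8% of all genes tested, and the median difference of the 9 was 0.45, against 0.02 over all genes. Unadjusted limma p-values were under 0.05 for 5 of the 9 (Hba-a1, Hbb-b1, Slc4a1, Klf1 and Epor), each higher in the mutant arrays, as held for 8.88% of all genes. Members read on the same arrays can vary together (Pearson r = 0.924 for Hba-a1 and Hbb-b1), so these 5 are not separate results. Epor was the only member whose groups did not overlap, with the mutant arrays higher, as held for 7.22% of all genes.

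**Figure D1:**
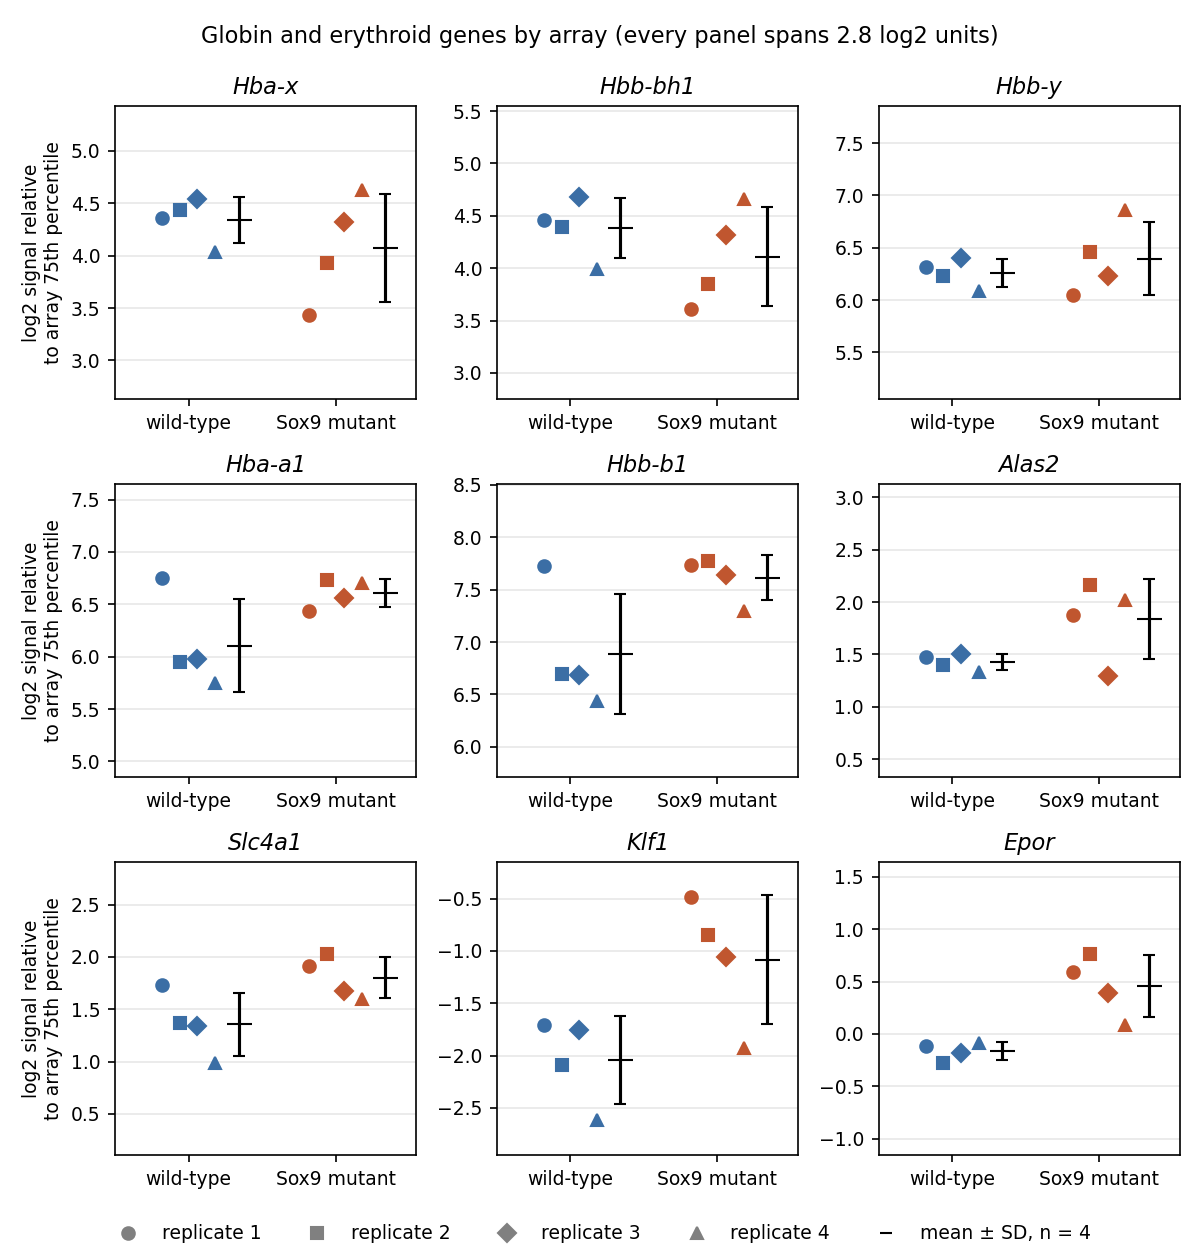
Log2 signal of each of the 9 genes relative to the array's 75th percentile, 1 symbol per array, with the mean ± SD of 4 arrays beside each genotype (blue, wild-type; orange, Sox9 mutant). Wild-type replicate 1 sits with the mutant arrays for Hba-a1 and Hbb-b1, the embryonic globins overlap widely, and in Epor every mutant array lies above every wild-type array.

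The definitive globins had higher means in the mutant arrays, with 1 wild-type array as high as the mutants. Hba-a1, the adult alpha chain, was represented by its brighter probe, A_52_P208681. Of the Hba-a1 probes, only A_52_P278538 was matched to Hba-a1 in the RefSeq table used here. Which alpha globin copy A_52_P208681 reads was not tested. The level of Hba-a1 was 6.75, 5.95, 5.97 and 5.75 on wild-type arrays 1 to 4 and 6.44, 6.74, 6.56 and 6.70 on mutant arrays 1 to 4. Wild-type replicate 1 was the highest of all 8 arrays, and the other wild-type arrays were below every mutant array. Wild-type replicate 1 also had the lowest 75th percentile (372) of the 8 arrays. Before that scaling its Hba-a1 signal was 39960, against 33076 to 38357 on the other wild-type arrays and 39028 to 64791 on the mutant arrays. The part of the scaling in its standing was not tested. The means were 6.11 ± 0.44 and 6.61 ± 0.14 (SD, n = 4 each), a difference of 0.50 (SE 0.21, 95% interval 0.01 to 0.995, limma adjusted p = 0.253). Without wild-type replicate 1 the difference was 0.72 and was called (limma adjusted p = 0.0345). That array was the 1 most against the difference, and with any other array left out Hba-a1 was not called (limma adjusted p = 0.321 to 0.508).

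Hbb-b1, the adult beta chain, followed the same arrays. Its level was 7.73, 6.69, 6.68 and 6.44 on wild-type arrays 1 to 4 and 7.73, 7.78, 7.64 and 7.30 on mutant arrays 1 to 4. Again the other 3 wild-type arrays lay below all mutant arrays, and wild-type replicate 1 lay among them. The difference was 0.73 over all arrays (SE 0.27, 95% interval 0.10 to 1.36, limma adjusted p = 0.190) and 1.01 without wild-type replicate 1 (limma adjusted p = 0.0281). Leaving out any other array gave no call (limma adjusted p = 0.191 to 0.403). The other Hbb-b1 probes gave differences of 0.82, 0.87 and 1.04, each above 0, with adjusted p of 0.266, 0.177 and 0.131 in the limma fit over probes. The other Hba-a1 probe gave 0.46 (adjusted p = 0.341).

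The brightest globin spots were read from the scanner's low-gain scan and scaled up by the scanner software. That held on all 8 arrays for both Hba-a1 probes, the Hbb-y probe and Hbb-b1 probes A_52_P213909 and A_51_P374476. For A_52_P260346 it held on 1 wild-type and 4 mutant arrays, and for A_51_P374468, which had the largest difference, on no wild-type and 3 mutant arrays. The part of the change of scan in those probes' differences was not tested.

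**Figure D2:**
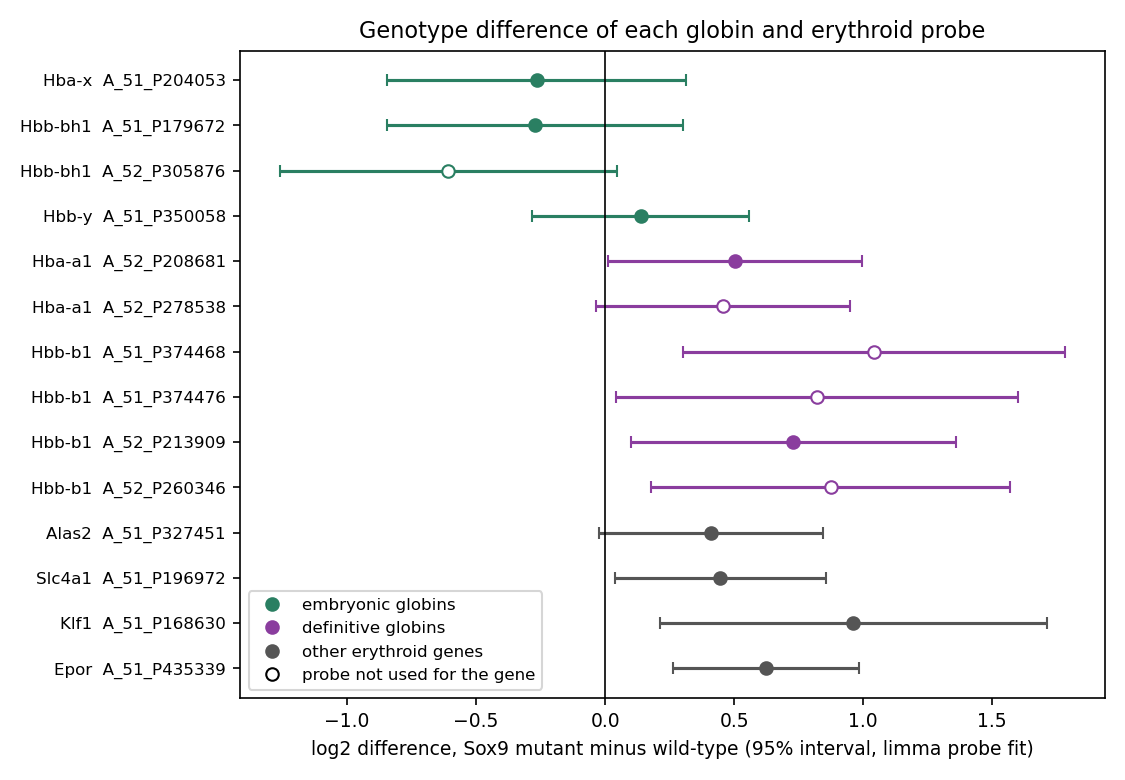
Difference of each of the 14 probes, mutant minus wild-type, on the log2 scale, with its 95% interval from the limma fit over probes; open circles are probes of a gene that was represented by another probe. The 6 definitive globin probes lie between 0.46 and 1.04, and the 3 probes of Hba-x and Hbb-bh1 lie below 0 with intervals that span it.

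Hba-x and Hbb-bh1 had lower means in the mutant arrays, by less than the spread between those arrays, and much of the difference rested on mutant replicate 1. Hba-x, the embryonic alpha-type zeta chain, was at 4.36, 4.44, 4.54 and 4.03 on wild-type arrays 1 to 4 and at 3.43, 3.93, 4.32 and 4.62 on mutant arrays 1 to 4. The mutant arrays held both the lowest and the highest value of the 8, so the wild-type range lay inside the mutant range. The difference was -0.27 (SE 0.25, 95% interval -0.85 to 0.32, limma adjusted p = 0.710), and -0.05 without mutant replicate 1.

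Hbb-bh1, an embryonic beta-type chain of primitive red cells, was at 4.46, 4.40, 4.68 and 3.99 on wild-type arrays 1 to 4. On mutant arrays 1 to 4 it was at 3.61, 3.85, 4.32 and 4.66. Mutant replicates 1 and 2 lay below all wild-type arrays, and mutant replicates 3 and 4 lay within the wild-type range. The difference was -0.27 (SE 0.25, 95% interval -0.85 to 0.30, limma adjusted p = 0.693), and the overlapping second probe gave -0.61 (adjusted p = 0.340 over probes). Without mutant replicate 1 the difference was -0.11.

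Hbb-y, the embryonic epsilon-type chain, was nearly level between the genotypes in its means, at 6.26 ± 0.14 in wild-type and 6.40 ± 0.35 in mutant arrays (SD, n = 4 each). The wild-type replicates 1 to 4 were at 6.32, 6.23, 6.40 and 6.08, and the mutant replicates 1 to 4 at 6.05, 6.46, 6.23 and 6.86. Mutant replicate 4 was the highest array and mutant replicate 1 the lowest, and the difference of 0.14 (SE 0.18, 95% interval -0.28 to 0.55, limma adjusted p = 0.815) turned to -0.02 without mutant replicate 4.

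Across the 8 arrays the embryonic globins Hba-x and Hbb-bh1 ran together (Pearson r = 0.971, permutation p = 0.000149, 0.00149 after adjustment; Spearman rho = 0.952, permutation p = 0.00114, 0.0114 after adjustment). Adjustment was over the 10 pairs of globin genes computed. The value of r was 0.968 without the 2 arrays farthest from the median of Hba-x and 0.967 after each genotype's mean had been removed. For Hbb-y the values were lower, with r of 0.618 for Hba-x (permutation p = 0.106, 0.270 adjusted; rho 0.619, permutation p = 0.115) and 0.601 for Hbb-bh1 (permutation p = 0.108, 0.270 adjusted; rho 0.595, permutation p = 0.132). Without the 2 farthest arrays these were 0.817 and 0.775, and after each genotype's mean had been removed 0.808 and 0.797. Whether they differ from the r of Hba-x and Hbb-bh1 was not tested. The points share the array's own scaling, and a slide held too few arrays for a value within it. For the definitive globins Hba-a1 and Hbb-b1 r was 0.924 (permutation p = 0.00585, 0.0293 adjusted), and rho was 0.762 (permutation p = 0.0368, 0.184 adjusted). The value of r was 0.811 without the 2 arrays farthest from the median of Hba-a1 and 0.859 after each genotype's mean had been removed. Wild-type replicates 2 to 4 stood apart from the other 5 arrays, so the pooled r rests in part on that split.

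**Figure D3:**
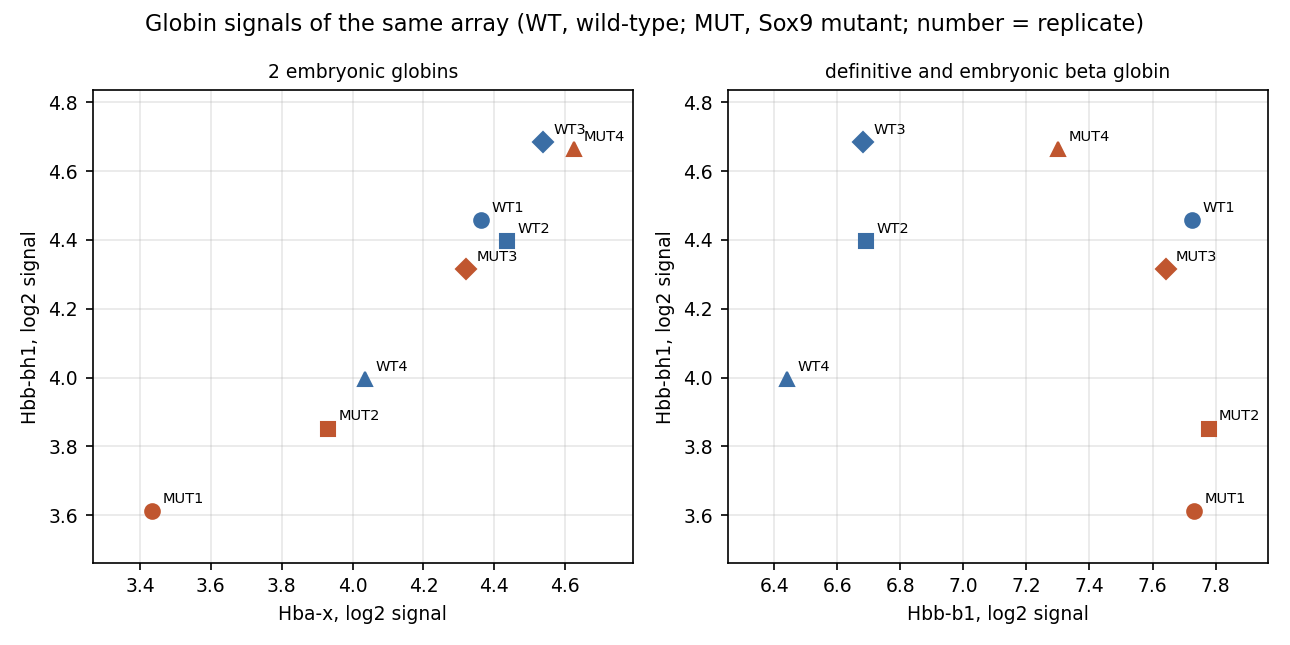
Log2 signals of globin pairs on the same array, 1 labelled point per array. Hbb-bh1 and Hba-x lie along 1 line from mutant replicate 1 (3.61 and 3.43) to the pair of wild-type replicate 3 and mutant replicate 4, whereas against Hbb-b1 wild-type replicates 2 to 4 stand apart at the left.

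Differences between embryonic and definitive globins within an array do not depend on the percentile by which that array was scaled. The scanner software's scaling of low-gain spots is not removed where a pair was read from different scans. Hbb-b1, Hba-a1 and Hbb-y were read from the low-gain scan on all 8 arrays, and Hbb-bh1 and Hba-x on none. The part of that scaling in Hbb-bh1 minus Hbb-b1 and in Hba-x minus Hba-a1 was not tested. Hbb-bh1 minus Hbb-b1 was -3.27, -2.29, -1.997 and -2.44 on wild-type arrays 1 to 4 and -4.12, -3.93, -3.33 and -2.64 on mutant arrays 1 to 4. Of the mutant arrays, 3 were below every wild-type array and the other was within the wild-type range, so the embryonic signal relative to the definitive signal was lower in the mutants (mean difference -1.002), which did not pass the exact permutation test (two-sided p = 0.0571, 0.114 adjusted over the 2 beta globin differences). The smallest p that 4 against 4 arrays allow is 0.0286.

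For Hbb-y minus Hbb-b1 the values were -1.41, -0.46, -0.28 and -0.35 on wild-type arrays 1 to 4 and -1.69, -1.32, -1.41 and -0.44 on mutant arrays 1 to 4. Wild-type replicate 1 lay with the mutants and mutant replicate 4 with the wild-type arrays. The mean was 0.59 lower in the mutants, and the exact permutation test did not separate the genotypes (two-sided p = 0.171, 0.171 adjusted). On the alpha side, Hba-x minus Hba-a1, a pair chosen after its values were seen, differed by -0.77 (exact permutation p = 0.0857).

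Alas2, the erythroid enzyme that starts haem synthesis, was at 1.48, 1.39, 1.51 and 1.33 on wild-type arrays 1 to 4 and at 1.88, 2.16, 1.29 and 2.02 on mutant arrays 1 to 4. In 3 mutant arrays it was above all wild-type arrays, and in mutant replicate 3 it was below them. The difference was 0.41 (SE 0.19, 95% interval -0.02 to 0.84, limma adjusted p = 0.291) and 0.59, called at an adjusted p of 0.0386, without mutant replicate 3. Leaving out any other array gave no call (limma adjusted p = 0.350 to 0.507). Alas2 lies on the X chromosome. The Y-linked gene Ddx3y was at -6.84, -4.86, -0.82 and -7.43 in the wild-type replicates and at 0.11, -0.85, -0.92 and -1.37 in the mutant replicates, so the sex of the pooled embryos ran in part with genotype. Xist, a transcript of female cells, was at -5.73 in mutant replicate 1 and at 3.11 to 4.75 on the other arrays. Much of the difference of Hba-x and Hbb-bh1 rested on that same mutant replicate. The part of sex in the differences of the members was not tested.

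Slc4a1, the band 3 anion exchanger of the red cell membrane, was at 1.73, 1.37, 1.34 and 0.99 on wild-type arrays 1 to 4. On mutant arrays 1 to 4 it was at 1.91, 2.02, 1.68 and 1.60. Wild-type replicate 1 overlapped the mutant range and the other wild-type arrays lay below it, with a difference of 0.45 (SE 0.18, 95% interval 0.04 to 0.85, limma adjusted p = 0.212).

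Klf1, the transcription factor that drives adult beta globin and many other erythroid genes, had the largest difference of the 9. It was at -1.71, -2.09, -1.76 and -2.62 on wild-type arrays 1 to 4 and at -0.49, -0.85, -1.06 and -1.93 on mutant arrays 1 to 4. Mutant replicates 1 to 3 were above all wild-type arrays, and mutant replicate 4 was within the wild-type range. The geometric mean of the mutant arrays was 1.95 times that of the wild-type arrays (log2 difference 0.96, SE 0.33, 95% interval 0.21 to 1.71, limma adjusted p = 0.145). Without mutant replicate 4 the difference was 1.24 and was called (limma adjusted p = 0.0406). Leaving out any other array gave no call (limma adjusted p = 0.170 to 0.318).

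Epor, the receptor for erythropoietin, was at -0.12, -0.28, -0.18 and -0.09 on wild-type arrays 1 to 4 and at 0.59, 0.76, 0.39 and 0.08 on mutant arrays 1 to 4. All mutant arrays were above all wild-type arrays, with mutant replicate 4 closest to them. The geometric mean of the mutant arrays was 1.54 times that of the wild-type arrays (95% interval 1.20 to 1.97; log2 difference 0.62, SE 0.16), with a limma adjusted p of 0.0598 just above the threshold and an exact permutation p of 0.0286. The call turned on the setting: adjusted p was 0.0352 from the authors' value table, 0.0327 with the slide as a random block and 0.0239 without mutant replicate 4, with differences of 0.58, 0.65 and 0.75. Leaving out any other array gave no call (limma adjusted p = 0.0946 to 0.159).

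The arrays lay on 3 slides that each held both genotypes. Within slides 1, 2 and 3 Hbb-b1 differed by 0.95, 0.84 and 0.70, Hba-a1 by 0.61, 0.59 and 0.49, Klf1 by 1.03, 0.55 and 1.31, and Epor by 0.67, 0.52 and 0.86. These 4 genes and Slc4a1 (0.31, 0.42 and 0.67) were thus higher in the mutant arrays on each slide. Hba-x differed by -0.12, -0.51 and -0.27 and Hbb-bh1 by -0.08, -0.55 and -0.37, lower on each slide. Hbb-y (-0.01, 0.05 and 0.25) and Alas2 (-0.11, 0.44 and 0.76) changed sign between slides. With the slide as a block the differences were 0.82 for Hbb-b1, 0.56 for Hba-a1, 0.96 for Klf1 and 0.68 for Epor (limma adjusted p = 0.172, 0.227, 0.212 and 0.0507).

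The upstream sequence of Epor is shown because Epor was the member whose genotypes did not overlap, and because it holds letters that erythroid factors are known to prefer. RefSeq promoter sequences (GRCm38.p6) matched 6 of the 9 members by symbol (Hba-a1, Hba-x, Hbb-y, Alas2, Klf1 and Epor). In the 250 bases before the start, searched on both strands, the letters AGATAA, 1 form read by factors of the Gata1 family, were present in 2 of the 6 (Alas2 and Epor) and in 9.99% of 32851 promoters. The form TGATAA, which these factors also read, was not part of the search. It stands on 1 strand or the other in the windows of Hba-a1, Hba-x, Hbb-y and Klf1, so such letters are not particular to Alas2 and Epor. Its share over all promoters was not computed. CCNCNCCC, read by factors of the Klf1 family and whose matches may overlap each other, was present in 3 of the 6 (Hba-x, Alas2 and Epor) and in 45.9% of promoters. The Epor window is chr9:21963577-21963826 (GRCm38.p6, minus strand); capitals mark the matches, which begin 54 bases before the start for AGATAA (read on the other strand as TTATCT) and 124, 122, 28 and 26 bases before it for CCNCNCCC. Whether a factor binds there was not measured.
Epor: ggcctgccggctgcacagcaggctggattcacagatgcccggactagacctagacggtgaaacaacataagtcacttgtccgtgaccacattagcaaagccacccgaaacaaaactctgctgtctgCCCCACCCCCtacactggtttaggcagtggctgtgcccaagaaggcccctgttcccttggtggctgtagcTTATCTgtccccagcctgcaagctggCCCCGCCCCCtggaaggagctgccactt

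Other genes of the erythroid programme came from 7 lists with 72 tested genes besides the members; none was called, 57 of the 72 had higher means in the mutant arrays, and their median difference was 0.23. That median was 0.14 with normexp background correction, and the mean shift of the 72 genes within slides 1, 2 and 3 was 0.27, 0.09 and 0.34. Among genes of the red cell membrane 16 of 17 were above 0, with a median of 0.42 that fell to 0.22 with normexp and 0.25 in the authors' value table. Their mean shift within slides 1, 2 and 3 was 0.53, 0.10 and 0.66. One of them was Ank1, the ankyrin that anchors band 3 to the membrane skeleton, at 0.52 (SE 0.24, limma adjusted p = 0.293).

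Haem synthesis genes differed less, with 10 of 12 above 0 and a median of 0.19. Fech, the enzyme that inserts iron, was at 0.32 (SE 0.20) and was not called (limma adjusted p = 0.475). Genes of iron handling had a median of 0.05, with 6 of 8 above 0. In that list Tfrc, the transferrin receptor through which erythroblasts take up iron, was at -0.24 (SE 0.16, limma adjusted p = 0.533). Tfr2 had the largest difference of that list, at 0.97 (SE 0.34, limma adjusted p = 0.160).

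Erythroid transcription factors were mixed: 8 of 13 were above 0 and 5 below, with a median of 0.19. Myb had the largest difference of the list in size and was lower in the mutant arrays, at -0.82 (SE 0.26, limma adjusted p = 0.120). In 3 mutant arrays Myb was below every wild-type array. Gata1, the X-linked factor required for red cell maturation, was at -2.78, -3.44, -2.55 and -3.52 on wild-type arrays 1 to 4 and at -2.07, -2.30, -3.07 and -3.10 on mutant arrays 1 to 4, a difference of 0.44 (SE 0.32, limma adjusted p = 0.570) with overlapping groups. Tal1, its partner in blood development, was higher in every mutant array than in any wild-type array and differed by 0.40 (SE 0.11, limma adjusted p = 0.0922). All 9 tested genes of erythropoietin and Kit signalling were above 0 (8 of 9 with normexp or quantile normalization), with a median of 0.20, among them Jak2, the kinase bound to Epor, at 0.20 (SE 0.15) and Kit, the stem cell factor receptor, at 0.16 (SE 0.12); Epo itself was not bright enough to be tested.

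Red cell cytoplasm genes had a median of 0.09 (0.03 with the slide block and 0.19 with quantile normalization), with 6 of 11 above 0. Ahsp, the chaperone that stabilises free alpha chains and is named Eraf on the array, was at 0.66, -0.19, -0.51 and -0.51 on wild-type arrays 1 to 4 and at 1.33, 1.49, 0.70 and -0.17 on mutant arrays 1 to 4. As for Hbb-b1, wild-type replicate 1 was the highest wild-type array and mutant replicate 4 the lowest mutant array, and the difference of 0.98 (SE 0.41) was not called (limma adjusted p = 0.239). Car2, a carbonic anhydrase, was at 0.57 (SE 0.25, adjusted p = 0.266). The other 5 genes of the list were below 0. Among them Isg20, with the lowest adjusted p of the list, was at -0.82 (SE 0.24, limma adjusted p = 0.0971). Its level in 3 mutant arrays was below every wild-type array. The theta globins Hbq1a and Hbq1b were at 0.26 and 0.40, neither called.

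**Figure D4:**
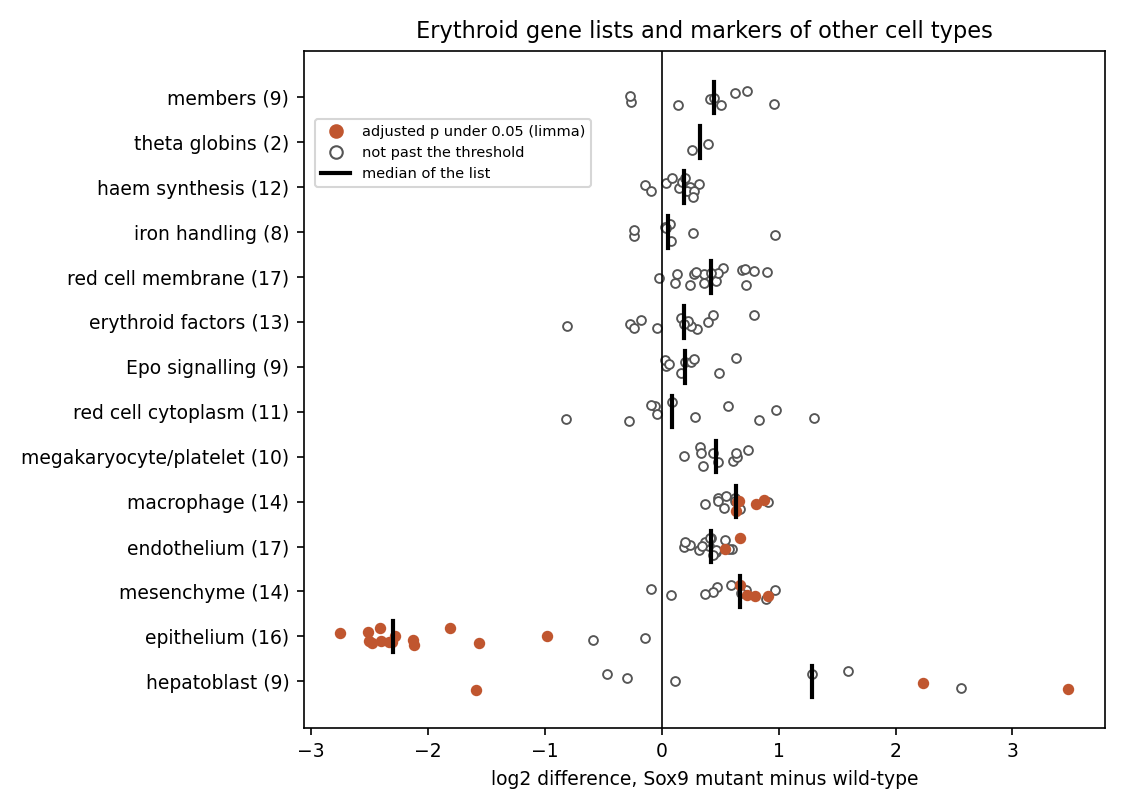
Differences (mutant minus wild-type, log2) of the tested genes of each list, with the number tested in brackets; filled circles passed a limma adjusted p of 0.05 and the bar is the list median. No erythroid or platelet gene is filled, whereas 14 of 16 epithelial genes lie filled at the left and the macrophage, endothelial and mesenchymal lists lie mostly to the right of 0.

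Markers of other cell types moved with genotype as well. Epithelial markers fell in 14 of 16 cases (median -2.30), Cdh1 among them at -2.51 and Epcam at -2.12. Macrophage markers rose in 5 of 14 cases and were all above 0 (median 0.63), endothelial markers rose in 2 of 17 and were all above 0 (median 0.42), and mesenchymal markers rose in 4 of 14 with 13 above 0 (median 0.67). Platelet and megakaryocyte markers, cells that share a precursor with red cells, were all above 0 in 10 genes with a median of 0.46 and no call, but the median was 0.24 with normexp, 9 of 10 were above 0 with normexp or the slide block, and their mean shift within slides 1, 2 and 3 was 0.99, -0.45 and 1.02; Pf4 was at 0.61 (SE 0.20, limma adjusted p = 0.134).

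The mean level of the 16 epithelial markers ranged from 1.27 to 1.62 over the wild-type arrays and from -1.14 to 0.27 over the mutant arrays. For the 14 macrophage markers the ranges were 0.36 to 0.62 and 0.87 to 1.31, for the 17 endothelial markers 1.03 to 1.24 and 1.41 to 1.72, and for the 14 mesenchymal markers 2.06 to 2.32 and 2.57 to 2.98. The genotypes did not overlap in these 4 means, and no tested gene of the 4 lists was below background on every array of a genotype. For the 9 members the ranges were 2.88 to 3.44 and 3.46 to 3.65. With each member first scaled to equal variance over the arrays the genotypes overlapped, since wild-type replicate 1 (0.200 SD) lay above mutant replicate 1 (0.0843 SD). The platelet list overlapped too, at -2.77 to -1.84 and -2.42 to -1.60.

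Of 9 hepatoblast genes, Alb and Afp rose and Ambp fell. Alb, the serum albumin of liver cells, was at -1.85, -2.76, -1.21 and -1.87 on wild-type arrays 1 to 4 and at 1.89, 3.29, 0.98 and 0.07 on mutant arrays 1 to 4, a difference of 3.48 (SE 0.65, limma adjusted p = 0.0233). Its lowest mutant array was replicate 4, which among the members was the lowest mutant array for Hbb-b1, Slc4a1, Klf1 and Epor and the highest for Hba-x, Hbb-bh1 and Hbb-y. For Hba-a1 (6.70) and Alas2 (2.02) mutant replicate 4 was neither the lowest nor the highest mutant array. Afp differed by 2.23 (SE 0.28, adjusted p = 0.00812) and Ambp by -1.59 (adjusted p = 0.00889). The part of these cell types in the globin and erythroid differences was not tested, and in RNA from whole dissected tissue more red cells and more RNA per red cell cannot be told apart.

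By a rule that took the 10 genes outside the lists with the highest Pearson r to the mean of the scaled members over the 8 arrays, the genes most like the set were Commd9 (r = 0.954), Rims1 (0.940), Olfr1500 (0.926), Epha4 and Pgp (0.913 each), the array's unnamed transcript NAP108522-1 (0.893), Cfl1 (0.891), Ror2 (0.884), Creg1 (0.877) and Lrrc58 (0.876). None of the 10 was called between the genotypes, and with 18506 genes searched over 8 arrays these values are a description of likeness only.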

How the data were processed

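Each scanner file holds 1 array: spot intensities made with Agilent Feature Extraction 9.5.3.1, per the file headers, which subtracted background, corrected spatial trends and combined a high-gain and a low-gain scan; processed signal, mean signal and background signal are linear intensities, deposited with flags per spot. The authors' deposited value table holds linear intensities of the same arrays with equal medians; its rows followed the row order of the scanner files (rank correlation with the mean signal at least 0.999 on each array), its background step stays unknown, and limma is named in the submitters' processing notes. It served as an alternative.

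Here log2 of the processed signal minus the array's 75th percentile was used, without control spots and outlier flags. Probes well above background on at least 4 of 8 arrays were kept, and the brightest kept probe stood for a gene. The 75th percentile ranged from 372 to 640, and 59.4% to 77.7% of spots were well above background; the number of arrays limits the precision. The genotypes were compared with limma 3.58.1 in R 4.3.3 (lmFit, eBayes, Benjamini-Hochberg over 18506 genes; a second fit over 27387 probes). Single values were compared by exact permutation over 70 assignments (Python 3.11.15, scipy 1.17.1), and correlations by permutation of the pairings. Figures used matplotlib 3.10.9. The fit was tested on simulated data.

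The genes and lists were chosen with earlier results of these data known. Named were the 9 members with every probe, 16 set erythroid and neighbouring genes (some are not reported here), any erythroid list gene past the threshold, Sox9, and the 10 genes most like the members in pattern. Other genes named (Ddx3y, Xist, Myb, Isg20, Tfr2, markers of other cells, theta globins) were chosen after their values were seen. The labels call the arrays separate samples; their design text counts biological replicates below the 4 arrays given for each genotype, and p-values measure the spread between these samples, which may in part be technical. Whether replicate numbers pair the samples was not settled, and the main fit treated the samples as unpaired. Alternatives were normexp background, quantile normalization, the authors' value table, all probes, the mean of probes, slide and replicate blocks, each array left out and, added after seeing the data, no low-gain probes and every alternative for the within-array globin differences (other probes, normexp, the authors' value table, each array left out, the replicate block). Probe coordinates are those of mm8, per the file headers; exon and UTR annotation of that build was not used here.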

Additional observations from a re-analysis of the deposited data

Results flagged for a closer look

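In groups of 4 arrays, 3 of the 50 gene-and-genotype groups examined held 1 array far from the other 3 by Dixon's criterion (critical value 0.829); chance flags about 1 in 20 such groups. Tal1 was at 0.13 in wild-type replicate 4, above the other wild-type arrays at -0.15 to -0.11. Ank1 was at -1.44 in mutant replicate 4, below the other mutant arrays at -0.73 to -0.63. Hbb-y minus Hbb-b1 was at -1.41 in wild-type replicate 1, below the other wild-type arrays at -0.46 to -0.28.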

How the results depend on the processing

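Over the alternatives run, 8 of the 9 members kept the sign of their difference; Hbb-y reversed to -0.016 without mutant replicate 4. The number of members called was 0, and 1 with the authors' value table (Epor, 0.58) and with the slide as a random block (Epor, 0.65). Leaving out 1 array in turn gave 0 to 2 calls: the differences ranged from 0.38 to 0.72 for Hba-a1, 0.58 to 1.01 for Hbb-b1, 0.30 to 0.59 for Alas2, 0.76 to 1.24 for Klf1, 0.52 to 0.75 for Epor, 0.32 to 0.57 for Slc4a1, -0.016 to 0.25 for Hbb-y, -0.45 to -0.05 for Hba-x and -0.46 to -0.11 for Hbb-bh1, the last pair being smallest without mutant replicate 1 and largest without mutant replicate 4. Over all genes the number called was 994, 419 with no filter on dim probes, where 27828 genes were tested, 1529 with the slide as a random block, and 395 to 976 when 1 array was left out; the cause of the change with the slide was not tested. Without probes read from the low-gain scan, Hba-a1, Hbb-b1 and Hbb-y gave no value. Within-array differences kept their sign in all settings run, at -1.34 to -0.80 for Hbb-bh1 and -0.91 to -0.43 for Hbb-y against Hbb-b1.

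With the replicate block the number of genes called was 340, and no member was called (Epor 0.62, limma adjusted p = 0.190). Deviations of same-numbered arrays had correlations of -0.354, -0.295, -0.00485 and 0.0875, against -0.369 to 0.565 for differently numbered arrays. These values gave no sign of pairing by number. With 4 values they cannot settle whether the samples were collected in pairs.

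Klf1 and Epor were the dimmest members, with processed signals down to 104 and 342; 4 arrays per genotype limit the precision of every difference.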
